A study of Mus musculus with 6 samples.

Results

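Translation initiation factors are the proteins that bring the ribosome to the start codon of a messenger RNA. Their transcripts were read in hindlimb satellite cells, the muscle stem cells, that had been sorted by flow cytometry from adult C57BL6/J mice. There were 3 libraries labelled scERα KO, in which estrogen receptor α was targeted in satellite cells, and 3 labelled scERα WT. All 6 came from mice given tamoxifen, 10 mg in total, to induce Cre. The labels used here give neither the Cre driver nor whether the 6 libraries are 6 mice. The p-values below therefore rest on library-to-library spread, part of which can be technical. The factors were taken as every gene symbol that starts with Eif and a digit, apart from the 4E-binding proteins (Eif4ebp), the eIF2α kinases (Eif2ak) and Eif2s3y, which left 47 of 24980 listed symbols. By complex these were 3 members of eIF2, 5 of eIF2B, 14 of eIF3, 13 of eIF4 and 12 others. The choice did not use measured values.

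Initiation starts when eIF2 with GTP carries the initiator tRNA to the small ribosomal subunit, helped by eIF1, eIF1A, eIF3 and eIF5, while the eIF4 factors bind the cap of the mRNA and unwind its leader. After start codon recognition eIF2 has lost its GTP, and eIF2B, its exchange factor, reloads it. In muscle stem cells this step is known for phosphorylation of eIF2α, which holds translation low in quiescence in mice. In cultured mammalian cells the mRNAs of ribosomal proteins, of elongation factors and of a few initiation factors, among them eIF3e, eIF3f, eIF3h and eIF4B, are known as TOP mRNAs, which begin with a C and a run of pyrimidines and are controlled together through mTOR.

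Esr1, the targeted gene, held 2.92, 3.69 and 3.87 TPM (a level scaled by transcript length and library total) in KO, against 7.53, 6.96 and 6.94 TPM in WT, each library on the side its label names. All 10 satellite cell markers were present in every library and summed to between 406 and 531 TPM in KO and between 364 and 496 TPM in WT. Sdc4, the most abundant, was the only marker of these with a lower mean in KO, 185 TPM against 220 TPM in WT. Vcam1, Cdh15 and Cd34 had every KO value over the highest WT value, as did 13.5% of all genes tested. The 5 Schwann cell markers summed to between 6.60 and 19.1 TPM in KO and between 4.47 and 6.77 TPM in WT, and the 4 erythroid markers to 415, 434 and 37.9 TPM in KO, against 214, 43.1 and 18.1 TPM in WT. Markers of fibro-adipogenic progenitors (6 genes), endothelial cells (5), leukocytes (5), muscle fibres (5), tenocytes (3) and pericytes (4) overlapped between the groups in their sums. The fibro-adipogenic sum was 59.2, 64.9 and 92.3 TPM in KO, against 51.9, 37.8 and 136 TPM in WT, highest in WT library 3. What part any of these cell types had in the differences below was not tested. In such bulk samples fewer cells of a type and less RNA per cell cannot be told apart.

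Of the 47 members, 45 had at least 1 TPM in 3 or more libraries and were tested, among 8971 genes in all. Eif4e1b, a 4E-like gene known from oocytes, lay between 0.18 and 0.52 TPM, and Eif5a2, the second eIF5A gene, between 0.29 and 0.44 TPM, and neither was tested. No member passed an adjusted p of 0.05 for KO against WT (limma on log2(TPM + 1), Benjamini-Hochberg over all genes tested), where 0.0557% of all genes did. The smallest adjusted p of a member was 0.318. At an unadjusted limma p under 0.05 there were 3 members with a lower value in KO, against 2.66% of all genes tested, and 1 with a higher value, against 7.89%. The 3 KO values were each under the lowest WT value in 6 members (Eif2b2, Eif3e, Eif3f, Eif3h, Eif3k and Eif4b), against 3.07% of all genes, and each over the highest WT value in 3 members (Eif2b5, Eif2d and Eif3j2), against 13.5%. The median log2 difference, KO minus WT, was 0.11 over the 45 members and 0.12 over all genes tested. Without WT library 3 these medians were 0.0044 and 0.08, and without KO library 1 they were 0.04 and 0.15. A higher value in KO was found in 29 of the 45 members, against 77.6% of all genes tested.

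The counts at unadjusted p depended on scale and on single libraries. Scaling by the median of ratios took the median of all genes to 0.01 and that of the members to -0.03, with 8 members lower and 0 higher at unadjusted p under 0.05, against 4.85% and 3.96% of all genes. When the protein-coding genes were rescaled on their own, 3 were lower and 5 higher, against 2.34% and 19.1% of all genes. Without KO library 2 or without KO library 3 the lower count was 1, against 2.73% and 2.26% of all genes. Without KO library 1 the higher count was 3, against 11% of all genes, and without WT library 2 it was 2, against 13.4%. Without WT library 1 or without WT library 3 the higher count was 0, against 4.88% and 5.29%.

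**Figure D1:**
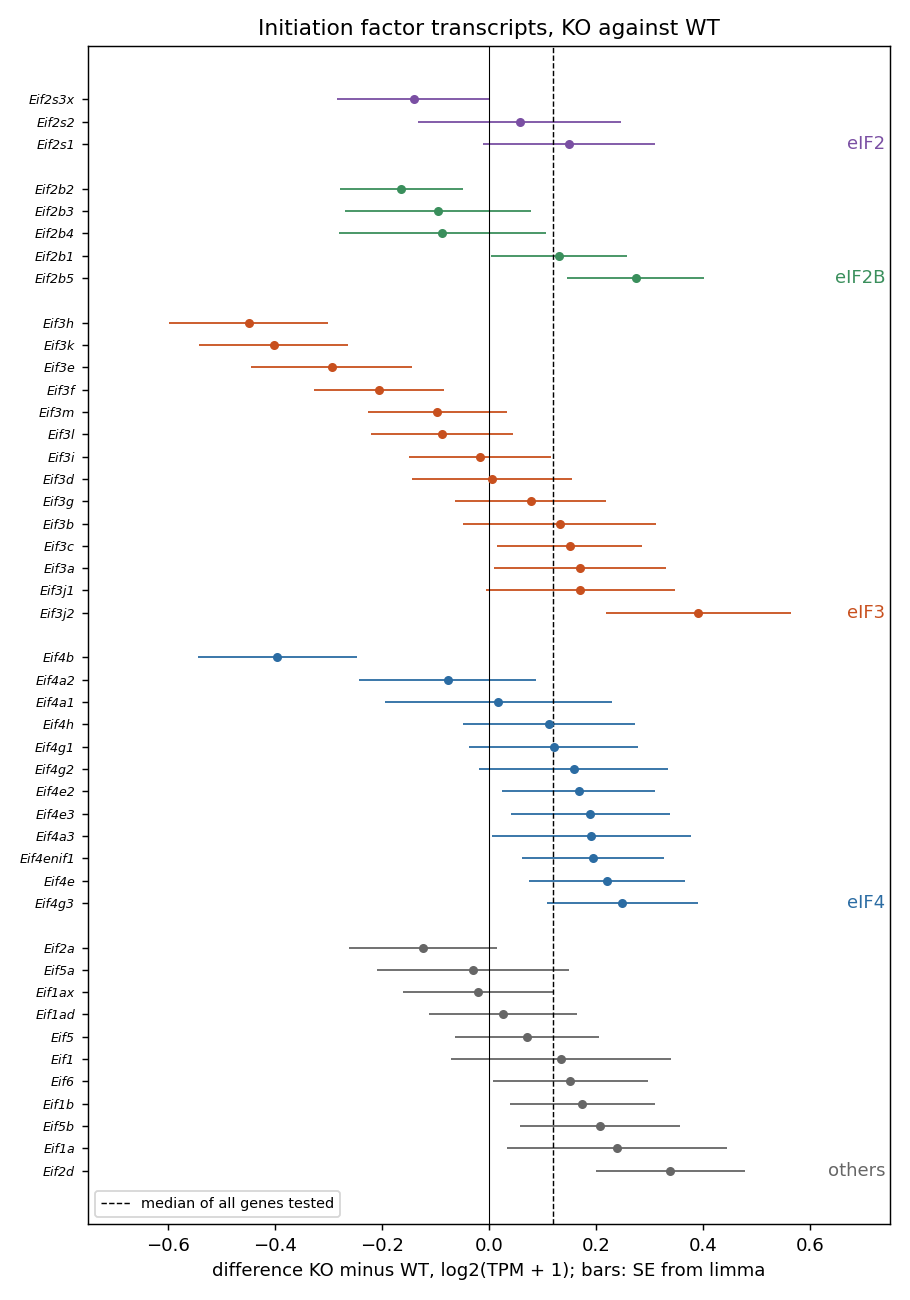
Log2 difference KO minus WT on the log2(TPM + 1) scale for the 45 tested members, grouped by complex and sorted within each; points are limma estimates, bars their SE (3 KO and 3 WT libraries), and the dashed line is the median of all genes tested, 0.12. Eif3h at -0.45, Eif3k at -0.40 and Eif4b at -0.40 lie farthest to the left, and Eif3j2 at 0.39 and Eif2d at 0.34 farthest to the right.

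Start regions are shown for every member with a run of at least 8 pyrimidines (C or T) near an annotated start, whatever its direction, and for Eif4b, which is reported as a TOP mRNA but has no run of that length there. Each holds the 20 bases before the RefSeq transcription start and the 30 bases from it on (GRCm38.p6), read on the gene's own strand. The longest unbroken run of pyrimidines is in capitals, both where lengths tie; for Eif4e and Eif4enif1, which have several starts, the start with the longest run was taken.
Eif2b2 (chr12:85219461-85219510, plus strand): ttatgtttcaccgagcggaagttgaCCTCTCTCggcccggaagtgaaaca
Eif2b5 (chr16:20498797-20498846, plus strand): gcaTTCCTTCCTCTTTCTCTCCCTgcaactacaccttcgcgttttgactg
Eif2s3x (chrX:94212622-94212671, minus strand): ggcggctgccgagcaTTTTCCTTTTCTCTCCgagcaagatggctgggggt
Eif3f (chr7:108934395-108934444, plus strand): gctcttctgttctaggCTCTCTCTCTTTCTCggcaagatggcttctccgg
Eif3k (chr7:28981859-28981908, minus strand): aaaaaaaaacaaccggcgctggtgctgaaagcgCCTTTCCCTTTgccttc
Eif3l (chr15:79075203-79075252, plus strand): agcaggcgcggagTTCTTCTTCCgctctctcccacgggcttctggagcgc
Eif3m (chr2:105016998-105017047, minus strand): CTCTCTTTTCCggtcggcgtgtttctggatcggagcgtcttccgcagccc
Eif4b (chr15:102073753-102073802, plus strand): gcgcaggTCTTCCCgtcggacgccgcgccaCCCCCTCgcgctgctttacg
Eif4e (chr3:138527248-138527297, plus strand): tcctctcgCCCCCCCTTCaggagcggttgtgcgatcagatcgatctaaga
Eif4enif1 (chr11:3202975-3203024, plus strand): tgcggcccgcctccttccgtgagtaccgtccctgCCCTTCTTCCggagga

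The longest run of any member, 21 bases, lay in Eif2b5, which had a higher value in KO. The run was 16 bases in Eif2s3x and 15 in Eif3f, both with a lower value in KO. In these 3 and in Eif3l it spanned the annotated start. It began at base 14 after the start in Eif3k and lay wholly before the start in Eif3m and in Eif4e. Eif4b had a pair of runs of 7 bases, one on each side of the start.

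Such a run, searched on the gene's strand only, lay at an annotated start of 9 of the 37 members with an entry and of 21.4% of the 18235 listed genes with one. Eif3e and Eif3h are not among the 37. Of the 9 members with a run, 6 had a lower value in KO (Eif2b2, Eif2s3x, Eif3f, Eif3k, Eif3l and Eif3m) and 3 a higher one (Eif2b5, Eif4e and Eif4enif1), with a median log2 difference of -0.10. Of the 27 tested members without, 6 had a lower value, with a median of 0.12. Over all listed genes tested, the median was 0.12 in the 1530 with a run and 0.12 in the 5241 without. A lower value in KO was found in 22.4% of those with a run and 20.5% of those without. All these directions are from the deposited TPM and depend on scale. With median of ratios Eif1, Eif2s2, Eif3b, Eif4a1, Eif4g1, Eif4h and Eif5, all without a run, had a lower value instead. Eif1ad, Eif3d, Eif3g, Eif3j1, Eif4a3 and Eif4e2, also without a run and higher in the deposited TPM, were not checked on that scale. Eif2b5, Eif4e and Eif4enif1, with a run, kept a higher one. The counts were not repeated on that scale. A match describes these letters and does not show a TOP mRNA, whose definition needs the true first base.

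Within eIF3, the largest initiation factor and the scaffold on which the others assemble, the value in KO was higher for 7 members and lower for 7, with a median log2 difference of -0.01, which was -0.15 with median of ratios and -0.17 with quantile normalization. Its core is built in mammals from 8 subunits with PCI or MPN domains (a, c, e, f, h, k, l and m), and 6 of these had a lower value, with a median of -0.15. Of the 6 members outside it 1 had a lower value, with a median of 0.10. Eif3b, outside the core, turned lower with median of ratios (-0.00965) and quantile normalization (-0.0248). The signs of Eif3d, Eif3g and Eif3j1, also outside it and higher in the deposited TPM, were not checked under these scalings. Eif3a and Eif3c, in the core, stayed higher under both, and the split was not repeated there. All 4 of the eIF3 members whose groups did not overlap downward (Eif3e, Eif3f, Eif3h and Eif3k) belonged to the core. Of all genes tested 22.4% had a lower value. The split into core and rest was made after values were seen, so it was not tested.

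Eif3h (chromosome 15, 51786558 to 51865523, minus strand, GRCm38), an MPN subunit, held 53.1, 49.5 and 51.4 TPM in KO libraries 1, 2 and 3, against 63.8, 83.4 and 65.6 TPM in WT libraries 1, 2 and 3. Every KO library was lower than every WT library, and WT library 2 was well above the other two. The means were 51.3 ± 1.81 TPM in KO and 70.9 ± 10.8 TPM in WT (SD, n = 3 each), a log2 difference of -0.45 (SE 0.15, limma unadjusted p = 0.0155, adjusted p = 0.318). This was the smallest p of any member. With 1 library left out the difference lay between -0.52 and -0.33, with limma unadjusted p between 0.0213 and 0.0528.

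Eif3k (chromosome 7, 28971372 to 28981864, minus strand), a small PCI subunit, held 27.2, 26.6 and 22.8 TPM in KO, against 30.9, 36.7 and 34.6 TPM in WT. The KO values again all lay below the WT values and KO library 3 was the lowest of the 6. KO minus WT came to -0.40 on the log2 scale (SE 0.14, limma unadjusted p = 0.0192, adjusted p = 0.344). With 1 library left out it lay between -0.47 and -0.33, with limma unadjusted p between 0.027 and 0.078.

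Eif3e (chromosome 15, 43250058 to 43282719, minus strand), a PCI subunit that touches the eIF4 factors, held 42.04, 37.54 and 35.04 TPM in KO, against 44.57, 54.49 and 42.55 TPM in WT. The groups did not overlap but lay close, with KO library 1 just under WT library 3, and the log2 difference was -0.29 (SE 0.15, limma adjusted p = 0.534). It was -0.19 without WT library 2 and -0.44 with median of ratios. Eif3f (chromosome 7, 108934417 to 108942951, plus strand), the other MPN subunit, held 21.0, 20.3 and 20.3 TPM in KO, against 23.9, 24.9 and 22.8 TPM in WT. Its spread was the narrowest of these 4, with 20.5 ± 0.382 TPM in KO and 23.9 ± 1.07 TPM in WT (SD, n = 3 each; log2 difference -0.21, SE 0.12, limma adjusted p = 0.586). That difference was -0.35 with median of ratios.

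The other core subunits did not share this order. Eif3a, the backbone of the complex, held 69.4, 57.6 and 57.7 TPM in KO, against 59.5, 59.3 and 45.6 TPM in WT. Its groups overlapped, and the mean was higher in KO (log2 difference 0.17, SE 0.16, limma adjusted p = 0.712). Eif3c, its partner at the centre of the core, averaged 29.9 ± 2.42 TPM in KO and 26.8 ± 2.16 TPM in WT (SD, n = 3 each). Eif3l and Eif3m, the remaining PCI subunits, differed by -0.09 and -0.10 on the log2 scale, with groups that overlapped in the deposited TPM but not after quantile normalization nor, for Eif3l, after median of ratios.

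**Figure D2:**
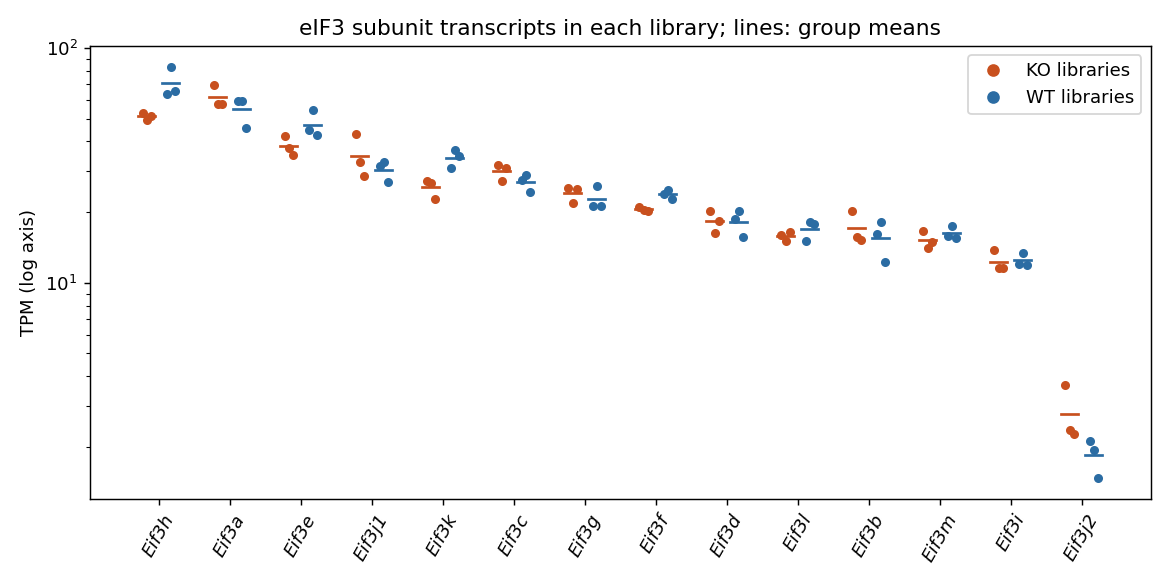
TPM on a log axis of the 14 eIF3 members in each of the 3 KO (left, orange) and 3 WT libraries (right, blue), ordered by mean level; lines are group means. The KO points lie below the WT points without overlap in Eif3h, Eif3e, Eif3k and Eif3f, and above them in Eif3j2.

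Outside the core, Eif3b, Eif3g and Eif3i form a module with an RNA-binding subunit, Eif3d is a cap-binding subunit, and Eif3j is loosely bound near the mRNA channel. Eif3b, Eif3d, Eif3g, Eif3i and Eif3j1 had log2 differences between -0.02 and 0.17, with groups that overlapped in each. Eif3j2, a second gene for the j subunit, on chromosome 18, held 3.68, 2.35 and 2.26 TPM in KO, against 2.12, 1.94 and 1.47 TPM in WT. Its groups did not overlap, with KO library 1 far above the rest (log2 difference 0.39, SE 0.17, limma adjusted p = 0.473). They overlapped after median of ratios or quantile normalization. Eif3j1, the more abundant of the pair, held 42.9, 32.6 and 28.5 TPM in KO, against 31.4, 32.7 and 26.9 TPM in WT, with KO library 1 also highest. In the annotation used here 94.0% of the 31-base words of Eif3j2 also occur in Eif3j1, so the level of the second gene is uncertain. For the same reason Eif3h and Eif3e, with 37.4% and 42.0% of their words shared with other genes, mostly pseudogenes, are less certain than Eif3k and Eif3f, with 0.373% and 0.403%. This share was 57.7% in Eif3j1, 55.3% in Eif3m and 23.5% in Eif3d, whose levels are uncertain too.

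A ratio within a library does not move with a factor common to all its values, so ratios to Eif3a were added, with members picked after their values were seen and therefore without a test. Eif3h over Eif3a was 0.765, 0.859 and 0.890 in KO, against 1.07, 1.41 and 1.44 in WT. Eif3k over Eif3a averaged 0.417 ± 0.0390 in KO and 0.633 ± 0.120 in WT (SD, n = 3 each). Eif3e over Eif3a averaged 0.622 ± 0.0262 in KO and 0.867 ± 0.102 in WT, and Eif3f over Eif3a 0.336 ± 0.0289 in KO and 0.440 ± 0.0523 in WT. In each of these ratios every KO library lay below every WT library. Together the 4 transcripts took 35.6%, 38.5% and 37.0% of the summed eIF3 TPM in the KO libraries, against 42.7%, 45.8% and 46.2% in the WT libraries. The other 10 eIF3 members summed to 231 ± 24.6 TPM in KO and 216 ± 21.6 TPM in WT (SD, n = 3 each).

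**Figure D3:**
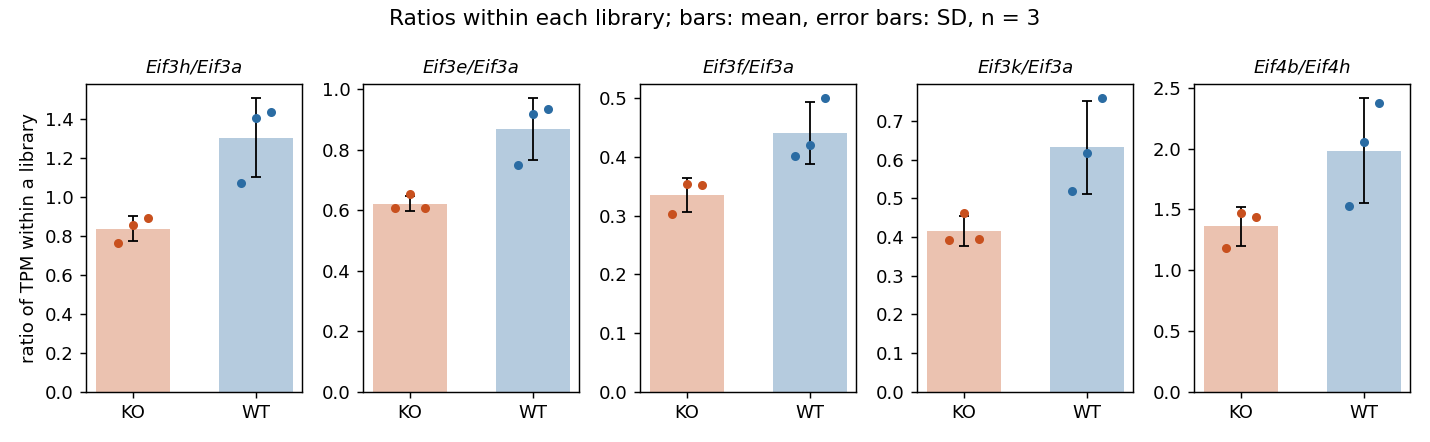
Ratios of TPM within each library for 4 eIF3 subunits over Eif3a and for Eif4b over Eif4h, with bars for group means, error bars for the SD (n = 3) and points for libraries, KO left and WT right, each axis from 0. All KO points lie below all WT points in the 5 panels, as in Eif3h over Eif3a with means of 0.838 in KO and 1.31 in WT.

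Among the eIF4 factors, 10 of 12 tested members had a higher value in KO, with a median log2 difference of 0.16, near the 77.6% of all genes. The median was 0.02 with median of ratios and 0.040 without WT library 3. Eif4b stood on the other side. Eif4b (chromosome 15, 102073773 to 102097173, plus strand), which stimulates the eIF4A helicase, held 25.4, 26.7 and 26.7 TPM in KO, against 30.1, 40.8 and 34.5 TPM in WT. No KO library reached the lowest WT library, and the KO libraries were nearly equal while the WT libraries spread widely. The means were 26.3 ± 0.751 TPM in KO and 35.1 ± 5.39 TPM in WT (SD, n = 3 each), a log2 difference of -0.40 (SE 0.15, limma unadjusted p = 0.0271, adjusted p = 0.381). With 1 library left out it lay between -0.50 and -0.28, with limma unadjusted p between 0.0197 and 0.0738. It was -0.24 with library weights (limma unadjusted p = 0.0783) and -0.54 with median of ratios. Eif4h, a relative of Eif4b that also helps the helicase, averaged 19.4 ± 1.84 TPM in KO and 18.0 ± 3.05 TPM in WT, and the ratio of Eif4b to Eif4h averaged 1.36 ± 0.159 in KO and 1.98 ± 0.430 in WT (SD, n = 3 each). That ratio was picked after values were seen and was not tested.

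The helicase itself was the most abundant eIF4 member. Eif4a1, its main gene, of whose 31-base words 67.5% occur in other genes, mostly a pseudogene, held 156, 115 and 102 TPM in KO, against 114, 154 and 101 TPM in WT. KO library 1 and WT library 2 were high and the rest close together, and the log2 difference was 0.02 (SE 0.21, limma adjusted p = 0.978). Eif4a2, the paralog, averaged 29.1 ± 5.84 TPM in KO and 30.4 ± 2.01 TPM in WT (SD, n = 3 each), and the ratio of Eif4a1 to Eif4a2 was 6.30, 3.23 and 3.83 in KO, against 3.99, 4.71 and 3.39 in WT. Eif4a3, a helicase of the exon junction complex rather than of initiation, differed by 0.19 on the log2 scale with overlapping groups, and 44.0% of its words occur in other genes.

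For the cap-binding proteins, Eif4e, the protein that holds the cap, held 10.3, 8.78 and 8.33 TPM in KO, against 7.92, 8.64 and 6.57 TPM in WT. The groups overlapped by KO library 3 and WT library 2 (log2 difference 0.22, SE 0.15, limma adjusted p = 0.619). Eif4e2, a cap-binding repressor, was at a like level, 9.45 ± 0.304 TPM in KO and 8.37 ± 1.33 TPM in WT (SD, n = 3 each). Eif4e3, a less abundant relative, held 4.52, 4.34 and 3.29 TPM in KO, against 3.19, 3.99 and 3.08 TPM in WT, with KO library 3 inside the WT range. Eif4enif1, which carries eIF4E into the nucleus and to mRNA silencing sites, held 4.68, 5.04 and 4.71 TPM in KO, against 3.90, 4.84 and 3.57 TPM in WT, and here WT library 2 alone lay within the KO range.

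The scaffold proteins join the cap to eIF3. Eif4g3 held 8.79, 11.02 and 11.13 TPM in KO, against 8.91, 7.66 and 8.91 TPM in WT, with KO library 1 inside the WT range (log2 difference 0.25, SE 0.14, limma adjusted p = 0.577). Eif4g1, the main scaffold, averaged 23.9 ± 2.46 TPM in KO and 22.0 ± 3.48 TPM in WT, and Eif4g2, a scaffold that lacks the eIF4E site, 57.0 ± 7.54 TPM in KO and 51.3 ± 9.49 TPM in WT (SD, n = 3 each). Eif4g2 was thus the most abundant of the 3 scaffold transcripts in both groups.

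The 3 subunits of eIF2 lay at unlike levels that kept one order in all 6 libraries, Eif2s2 first, then Eif2s3x, then Eif2s1. Of their 31-base words 25.6%, 36.4% and 15.4%, in that order, also occur in other genes. Eif2s1, the α subunit that is phosphorylated under stress, held 8.73, 6.72 and 7.01 TPM in KO, against 6.49, 7.95 and 5.58 TPM in WT. Eif2s2, the β subunit, held 59.9, 40.1 and 39.0 TPM in KO, against 46.1, 46.2 and 38.9 TPM in WT. Eif2s3x, the X-linked γ subunit that binds GTP and the tRNA, held 24.6, 22.9 and 22.4 TPM in KO, against 22.9, 29.9 and 25.0 TPM in WT. In all 3 the groups overlapped in the deposited TPM, though those of Eif2s3x did not after median of ratios or quantile normalization, where KO was below, and the limma adjusted p lay between 0.729 and 0.915. The median log2 difference of the 3 was 0.06, but -0.090 with median of ratios, -0.069 with quantile normalization, -0.044 with library weights, -0.138 without KO library 1 and -0.022 without WT library 3.

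The subunits of eIF2B were scarce, with mean levels between 1.05 and 2.61 TPM. Eif2b5, the catalytic ε subunit, held 2.65, 3.49 and 2.74 TPM in KO, against 2.12, 2.35 and 2.32 TPM in WT. Every KO library was above every WT library, on average 1.31-fold (log2 difference 0.27, SE 0.13, limma adjusted p = 0.493), though the groups overlapped after quantile normalization. Eif2b2, the β subunit of the regulatory core, ran the other way, with 1.78, 1.75 and 1.87 TPM in KO, against 1.92, 2.23 and 2.27 TPM in WT (log2 difference -0.16, SE 0.11, limma adjusted p = 0.632). Its groups overlapped once protein-coding genes were rescaled.

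The other regulatory subunits overlapped between groups. Eif2b1 (α) held 1.29, 1.53 and 1.42 TPM in KO, against 1.36, 1.30 and 0.97 TPM in WT. Eif2b4 (δ) held 0.56, 0.85 and 1.61 TPM in KO, against 1.15, 0.91 and 1.20 TPM in WT, the widest spread between KO libraries in this complex. Eif2b3 (γ), the second subunit of the catalytic part, held 2.52, 2.20 and 2.18 TPM in KO, against 2.89, 3.15 and 1.71 TPM in WT. At levels this low the log2(TPM + 1) scale understates differences.

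Of the remaining factors, 8 of 11 tested had a higher value in KO, with a median log2 difference of 0.13, which was -0.016 with median of ratios and 0.037 without WT library 3. This count too lay near the 77.6% of all genes. Eif2d, which delivers tRNA to the ribosome without GTP and also acts in recycling, held 1.32, 1.45 and 1.99 TPM in KO, against 1.10, 0.89 and 1.12 TPM in WT. The groups did not overlap, and it was the member counted above as higher (log2 difference 0.34, SE 0.14, limma unadjusted p = 0.0401, adjusted p = 0.435). Eif1, the small factor that guards start codon choice, was the most abundant member of all, with 160, 154 and 108 TPM in KO, against 117, 158 and 109 TPM in WT. Its groups overlapped, with KO library 3, WT library 1 and WT library 3 low, and 25.5% of its 31-base words occur in other genes.

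Eif1a, one of a pair of genes for the factor that works beside eIF1, held 25.5, 20.4 and 16.3 TPM in KO, against 18.7, 19.9 and 13.4 TPM in WT. Its ratio to the X-linked Eif1ax was 3.68, 3.44 and 3.07 in KO, against 3.06, 2.91 and 2.46 in WT, with KO library 3 just above WT library 1. Eif5b, which joins the ribosomal subunits, held 10.66, 8.95 and 8.41 TPM in KO, against 8.84, 8.33 and 6.73 TPM in WT. Only WT library 1 reached into the KO range, but 20.3% of the 31-base words of Eif5b are shared with other genes, chiefly Rev1, which overlaps it on the opposite strand. Eif1b, a paralog of Eif1, held 6.03, 6.38 and 5.71 TPM in KO, against 4.86, 6.20 and 4.74 TPM in WT. Eif6, which keeps the large subunit apart until it is mature, held 5.34, 4.83 and 3.95 TPM in KO, against 4.43, 4.44 and 3.52 TPM in WT. In both the groups overlapped, by WT library 2 in Eif1b and by KO library 3 in Eif6. Eif2a, an alternative tRNA carrier, Eif1ad and Eif1ax differed by -0.12, 0.03 and -0.02 on the log2 scale, all with overlapping groups, except that Eif2a lay lower in every KO library after median of ratios or quantile normalization. Eif5, the GTPase activator of eIF2, and Eif5a, a factor now known mainly for elongation, differed by 0.07 and -0.03 on the log2 scale.

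Of 12 ratios between related genes, 3 had groups that did not overlap, those of Eif1a to Eif1ax, of Eif3j1 to Eif3j2 (12.7 ± 1.10 in KO and 16.7 ± 1.77 in WT; SD, n = 3 each) and of Eif4e to Eif4ebp1, the gene of its inhibitor (0.911 ± 0.171 in KO and 0.699 ± 0.0753 in WT). Each had p = 0.1 in a two-sided exact permutation test, the smallest that 3 against 3 libraries can give, and an adjusted p of 0.4 over the 12. The other 9, among them Eif4a1 to Eif4a2, Eif4g1 to Eif4g2, Eif4e to Eif4e2 and Eif5 to Eif5b, overlapped between groups.

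The members shared a pattern across libraries that did not follow the groups. KO library 1 was the highest KO library in 31 of the 45 tested members, against 22.9% of all genes tested. WT library 2 was the highest WT library in 36 of 45, against 67.4% of all genes, and WT library 3 the lowest in 31 of 45, against 48.8%. The summed TPM of the 47 members was 1220, 1067 and 978 in KO, against 1049, 1242 and 964 in WT, which is 1.16%, 0.989% and 0.993% of the protein-coding TPM in KO, against 1.03%, 1.03% and 0.929% in WT. The sums overlapped, and the ratio of the group means, KO over WT, was 1.003.

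**Figure D4:**
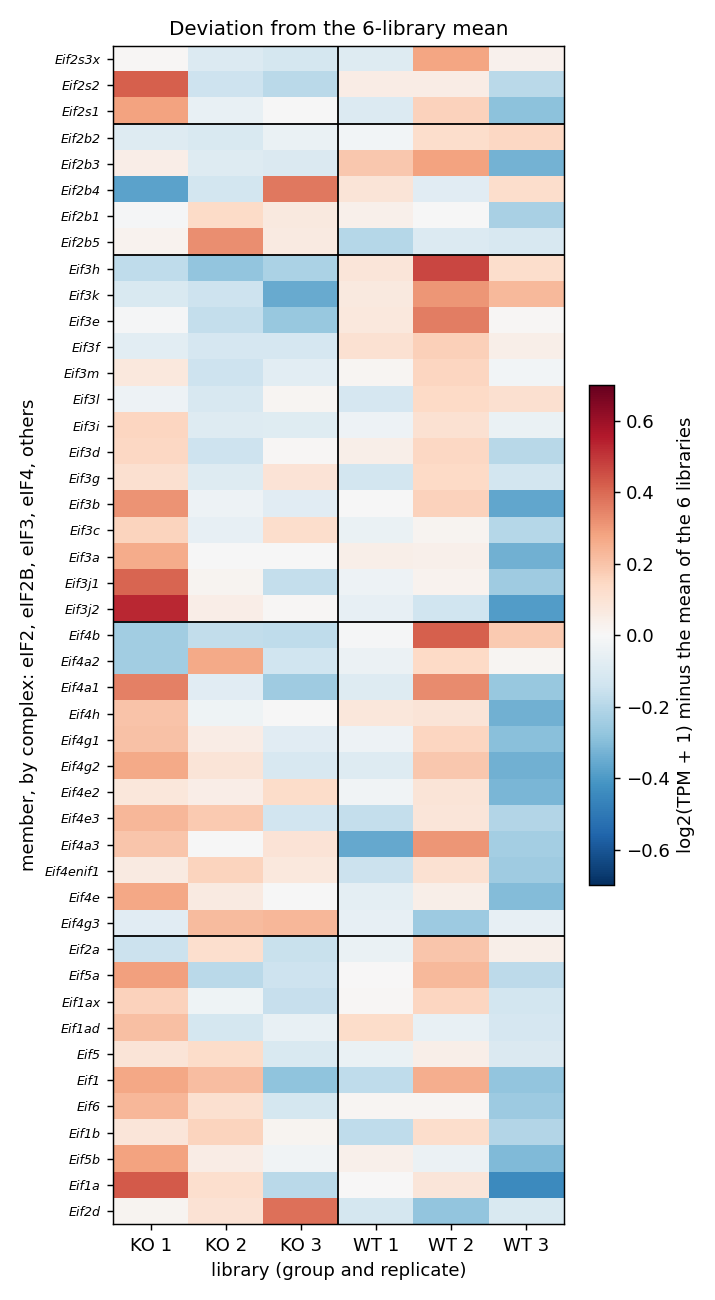
Deviation of log2(TPM + 1) from the mean of the 6 libraries for the 45 tested members (rows, by complex, lines between complexes) in KO libraries 1 to 3 and WT libraries 1 to 3 (columns); red is above and blue below the mean. KO library 1 and WT library 2 are red in most rows and WT library 3 blue, while Eif3h, Eif3k, Eif3e, Eif3f and Eif4b are pale or blue in all KO libraries and pale or red in all WT libraries.

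Genes that control or assist initiation but carry other names were read alongside. Of 33 tested, 23 had a higher and 10 a lower value in KO, where 77.6% of all genes were higher, with a median log2 difference of 0.11, and 0 passed by limma over all genes tested, with 2 higher and 0 lower at unadjusted p under 0.05, against 7.89% and 2.66% of all genes. The KO values were each over the highest WT value in 4 (Ddit3, Dhx29, Eif2ak3 and Paip1), against 13.5% of all genes. Ddit3, a transcription factor induced when eIF2α is phosphorylated, held 16.96, 15.82 and 14.54 TPM in KO, against 11.44, 12.37 and 9.63 TPM in WT (log2 difference 0.47, SE 0.14, limma adjusted p = 0.270). Dhx29, a helicase of the scanning ribosome, averaged 2.14 ± 0.400 TPM in KO and 1.39 ± 0.290 TPM in WT (SD, n = 3 each; limma adjusted p = 0.390). Paip1, a poly(A)-binding protein partner, held 3.96, 4.08 and 3.55 TPM in KO, against 2.69, 3.43 and 2.88 TPM in WT. Eif2ak3, the eIF2α kinase PERK of the endoplasmic reticulum, averaged 1.47 ± 0.156 TPM in KO and 1.12 ± 0.132 TPM in WT (SD, n = 3 each; limma adjusted p = 0.562). Eif2ak2, the double-stranded RNA sensor PKR, overlapped between groups, with 4.22, 5.14 and 4.84 TPM in KO, against 3.44, 4.26 and 3.83 TPM in WT. Atf4 and Ppp1r15a, from the same list, overlapped too, each with a log2 difference of 0.16 (limma adjusted p = 0.764 and 0.758). The other eIF2α kinase genes, Eif2ak1 and Eif2ak4, differed by 0.0054 and 0.061 on the log2 scale, also with overlapping groups.

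Elongation factors and ribosomal proteins, the other products of TOP mRNAs, were read from the same table, a list pattern already known from these libraries and so no independent evidence. All 5 tested elongation factor genes had a lower value in KO, with a median log2 difference of -0.46, and so did all 76 ribosomal protein genes taken by symbol, with a median of -0.57. Of all genes tested 22.4% had a lower value. The 4 initiation factors taken here as examples of TOP mRNAs, an incomplete list, had differences between -0.45 and -0.21, with a median of -0.34. Eef2, which moves the ribosome along, held 247, 218 and 212 TPM in KO, against 295, 390 and 311 TPM in WT. By limma 0 of these genes passed an adjusted p of 0.05 over all genes tested. At an unadjusted limma p under 0.05, 5 elongation factor genes and 73 ribosomal protein genes were lower in KO, against 2.66% of all genes. The initiation factors were not tested against these lists.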

How the data were processed

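RNA-seq was done on 3 KO and 3 WT libraries of sorted satellite cells. The authors deposited TPM per gene symbol, 1 column per library. Per the submitters' processing notes, the tools were kallisto, Trimmomatic 0.33, FastQC and CASAVA, with mm10 and GRCm38 as builds. The annotation, strandedness and summing of transcripts are not given in the sources used here. TPM keeps no depth, so the depth and the counting error are unknown. The listed values sum to between 295306 and 334382 TPM per library, so the rest of the scale lies in features not used here.

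Tests used limma 3.58.1 (R 4.3.3) on log2(TPM + 1) for genes that reached 1 TPM in 3 or more libraries (eBayes with a trend, two-sided, Benjamini-Hochberg, threshold 0.05); differences on this scale understate changes of low genes. Library numbers follow the order of deposition and pair no libraries. Alternatives were pseudocounts of 0.1 and 5, 3 filters, 3 scalings, eBayes without a trend or robust, library weights, and leaving out each library. The members, lists, tests and naming rule were chosen with earlier results of these data known. By the naming rule any member could be named. Values in every library were due for tested eIF2 and eIF2B members. In eIF3, eIF4 and the others they were due for the 5 with the smallest p and the most abundant. The rule allowed up to 4 control genes, those with the smallest p. Values of further members, of Eef2 and of the ratios to Eif3a and Eif4h, and the split of eIF3 into core and rest, were added after values were seen. So were those of the control genes Eif2ak1, Eif2ak3, Eif2ak4, Atf4 and Ppp1r15a. The elongation factor genes are Eef1a1, Eef1b2, Eef1d, Eef1g and Eef2, without the methyltransferase genes that share the symbol, which were left out after values were seen.

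Gene coordinates are GENCODE vM21 on GRCm38, 1-based, and start regions are RefSeq's (GRCm38.p6). Words of 31 bases shared with other genes were counted in GENCODE vM21 transcripts on both strands, which may differ from the authors' annotation. The fit was tested on simulated data in which 200 genes were changed 2-fold or 4-fold, in equal numbers. It called 76 of the 2-fold and 95 of the 4-fold changes, with 3 false calls. Each gene was drawn on its own, without shifts shared by a library. Changes under 2-fold, the size of all member differences here, were not simulated.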

Additional observations from a re-analysis of the deposited data

How the results depend on the processing

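No member passed an adjusted p of 0.05 in either direction under any of the 17 settings tried; the smallest adjusted p of a member in any was 0.102, with protein-coding genes rescaled. Members with unadjusted p under 0.05 and a higher value numbered 1, and 2 with a pseudocount of 0.1 or robust eBayes, 4 with library weights, 5 with protein-coding genes rescaled, 0 without a filter, with TPM of 5 or more, with median of ratios or with quantile normalization, and between 0 and 3 with 1 library left out. Of all genes 23.2% were higher with library weights, 19.1% with protein-coding genes rescaled, 8.12% with a pseudocount of 0.1, 7.67% with robust eBayes, 5.84% without a filter, 9.71% with TPM of 5 or more, 3.96% with median of ratios and 4.10% with quantile normalization. Those with a lower value numbered 3, and 8 with median of ratios, 9 with quantile normalization (4.85% of all genes in both) and between 1 and 3 with 1 library left out. With 1 library left out, between 4.88% and 13.4% of all genes were higher and between 2.2% and 2.73% lower. Groups that did not overlap, with KO above, numbered 3, and 1 with quantile normalization (6.42% of all genes) and 8 with protein-coding genes rescaled (26.7%). With KO below they numbered 6, and 10 with quantile normalization (7.59%; these alternatives were added after the data were seen). Eif3e, Eif3f, Eif3h, Eif3k and Eif4b were among those below under each of these scalings.

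With median of ratios and with quantile normalization the median log2 difference was -0.031 and -0.0409 over the members, -0.147 and -0.17 in eIF3, and -0.169 and -0.187 in eIF2B. That of eIF2B was -0.0874 in the fit used for the results above and 0.000387 with library weights. The sign was not checked gene by gene in Eif1ad, Eif1ax, Eif2a, Eif3d, Eif3g, Eif3i, Eif3j1, Eif3l, Eif3m, Eif4a3 and Eif4e2. In the rest it turned with median of ratios for Eif2s2 (-0.0904), Eif4a1 (-0.133), Eif1 (-0.0156), Eif3b (-0.00965), Eif4g1 (-0.0239), Eif4h (-0.031) and Eif5 (-0.0773). With quantile normalization it turned for Eif2s1 (-0.00871), Eif2s2 (-0.0693), Eif3b (-0.0248), Eif4g1 (-0.0459), Eif4h (-0.0686) and Eif5 (-0.0409). It turned with library weights for Eif2b4 (0.000387) and Eif2s2 (-0.0642), and with protein-coding genes rescaled for Eif5a (0.0334).

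With 1 library left out, the median of all members lay between 0.00438 and 0.184, that of eIF2 between -0.138 and 0.165, of eIF2B between -0.0702 and 0.0773, of eIF3 between -0.0799 and 0.0556, of eIF4 between 0.04 and 0.24 and of the others between 0.0373 and 0.209. Among the members checked gene by gene, the sign also turned in those that follow, and the same members as above were left unchecked. Log2 differences lay between -0.286 and 0.0219 in Eif2b3, between -0.294 and 0.0773 in Eif2b4 and between -0.138 and 0.165 in Eif2s2. They lay between -0.016 and 0.246 in Eif3b, between -0.155 and 0.187 in Eif4a1 and between -0.23 and 0.0256 in Eif4a2. In Eif4h they lay between -0.0291 and 0.185, and in Eif5a between -0.18 and 0.0751. Log2 ratios lay between -0.174 and 0.0655 for Eif1 to Eif1b, between -0.245 and 0.0673 for Eif2s1 to Eif2b1, between -0.182 and 0.300 for Eif4a1 to Eif4a2, between -0.0328 and 0.148 for Eif4e to Eif4e2, between -0.228 and 0.256 for Eif4e to Eif4ebp2, between -0.337 and 0.0331 for Eif4g1 to Eif4g3, between -0.0498 and 0.377 for Eif5a to Eif5a2. The cause was not tested. With TPM of 5 or more no eIF2B member was left to give a median. TPM keeps no depth, so what depth limits cannot be stated. No paired analysis was possible because no 2 titles share a number.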
